A study of Mus musculus with 30 samples.

Results

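Serine and folate one-carbon metabolism was followed through 8 enzymes on 30 arrays of mouse small intestine. They are Shmt2, Mthfd2 and Mthfd1l of the mitochondrial branch, Shmt1 and Mthfd1 of the cytosolic branch, and Phgdh, Psat1 and Psph of serine synthesis. The genes were chosen by name, as those whose symbol is the only one given for a probe set in the platform annotation, and they are 8 of the 18194 genes with a probe set of their own. They have 21 such probe sets, and each gene was read from the one with the highest mean over all arrays, with the others as a check. A further 2 probe sets are annotated to Phgdh together with a second symbol and were not used. All 8 genes passed the filter on low values, which left 14548 genes for testing.

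The mice were adults 2 months old in which Ah-cre, an inducible Cre recombinase of the intestine, had removed Rb (Rb KO) or Rb and Myc together (Rb/Myc double knockout, DKO). Villi, which are lined by differentiated epithelium, and crypts, which hold the stem and dividing cells, were taken 5 days after the ablation, as they were from controls. Each of the 6 groups of genotype and tissue had 5 arrays. Which alleles or inducing treatment the controls carried, and whether the replicates of a group were separate animals, is not stated in the labels, so the p-values measure only how much these arrays vary, which may be technical in part.

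Folate carries one-carbon units in a pair of parallel routes. In mitochondria, Shmt2 takes the one-carbon unit from serine, Mthfd2 oxidises it and Mthfd1l releases it as formate. In the cytosol, Mthfd1 loads formate back onto folate for purine and thymidylate synthesis, and Shmt1 interconverts serine and glycine. Serine itself is made from the glycolytic intermediate 3-phosphoglycerate by Phgdh, Psat1 and Psph acting in that order. Rb holds back the E2F factors that drive S phase genes, and Myc is a transcription factor that drives genes of growth and nucleotide synthesis.

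The promoter windows of 2 pairs of a mitochondrial enzyme and its cytosolic counterpart, Mthfd2 with Mthfd1 and Shmt2 with Shmt1, are shown as context for the expression values. Each is a RefSeq window of 300 bases around an annotated start on GRCm38.p6, printed 5′ to 3′ on the strand of the gene, with CCAAT, the box bound by NF-Y, in capitals on either strand. The windows of Mthfd2 and Mthfd1 lie at a start inside the annotated span of the gene rather than at its outer end.
Mthfd2, chr6:83317555-83317854, minus strand: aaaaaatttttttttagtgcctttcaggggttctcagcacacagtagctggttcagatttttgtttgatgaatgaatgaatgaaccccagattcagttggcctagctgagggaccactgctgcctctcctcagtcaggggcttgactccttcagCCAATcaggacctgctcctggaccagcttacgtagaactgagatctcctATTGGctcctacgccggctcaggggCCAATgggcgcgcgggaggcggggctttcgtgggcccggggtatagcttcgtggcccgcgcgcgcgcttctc
Mthfd1, chr12:76254982-76255281, plus strand: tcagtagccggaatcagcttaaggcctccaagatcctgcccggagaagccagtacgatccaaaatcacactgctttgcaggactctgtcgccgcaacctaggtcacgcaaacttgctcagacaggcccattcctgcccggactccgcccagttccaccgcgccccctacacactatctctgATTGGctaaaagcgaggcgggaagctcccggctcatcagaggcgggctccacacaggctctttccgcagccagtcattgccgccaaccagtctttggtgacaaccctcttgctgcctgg
Shmt2, chr10:127522395-127522694, minus strand: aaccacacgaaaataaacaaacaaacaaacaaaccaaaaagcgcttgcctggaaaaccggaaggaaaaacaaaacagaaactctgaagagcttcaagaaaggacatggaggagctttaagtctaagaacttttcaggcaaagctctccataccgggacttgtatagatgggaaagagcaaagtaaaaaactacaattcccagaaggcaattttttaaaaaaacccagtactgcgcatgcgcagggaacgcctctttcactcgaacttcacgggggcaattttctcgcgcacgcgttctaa
Shmt1, chr11:60811216-60811515, minus strand: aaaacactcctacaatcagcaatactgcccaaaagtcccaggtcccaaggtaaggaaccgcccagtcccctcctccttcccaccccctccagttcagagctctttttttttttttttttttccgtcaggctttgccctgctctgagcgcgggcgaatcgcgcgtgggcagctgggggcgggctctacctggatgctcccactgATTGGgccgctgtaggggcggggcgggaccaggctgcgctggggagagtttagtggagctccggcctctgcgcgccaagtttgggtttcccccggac
The window of Mthfd2 held CCAAT at -96 and -22 and its reverse complement at -47 relative to the start, counting the first base of each match. Of 32851 RefSeq windows of the same length, 3.37% held 3 or more and 37.4% held at least 1. Mthfd1 held 1, at -69, and Shmt1 held 1, at -47, both on the opposite strand, while the windows of Shmt2 and Mthfd1l held none. Phgdh and Psph held 2 each, and of the pair of Psat1 windows the first held 3 and the second none. No window of the 8 genes held the Myc E-box CACGTG, present in 7.15% of all windows. None held one of the E2F octamers TTTCGCGC, TTTGGCGC, TTTCCCGC or TTTGCCGC, present in 2.27%, or the ATF4 element TGATGNAA, present in 3.97%, with both strands searched. A match, or the lack of one, describes these letters in these windows only.

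The deposited values were read as log2 expression values from their range, since no label names the unit. A level is a log2 mean ± SD over 5 arrays and a difference is on the log2 scale ± SE. The adjusted p of a gene comes from limma, two-sided and over all 14548 tested genes, and a gene is called where it is under 0.05. The medians of the arrays lay between 6.28 and 6.34 in villi and between 6.67 and 6.73 in crypts, so levels were compared within a tissue only, and levels of different probe sets were not compared. The number of arrays limits the precision. In tissue made of several cell types, fewer cells of a type and less RNA per cell cannot be told apart. Rb1 stood at 9.73 ± 0.45 in control and 8.27 ± 0.06 in Rb KO villi, and at 9.91 ± 0.50 in control and 8.24 ± 0.07 in Rb KO crypts. Myc stood at 10.48 ± 0.41 in Rb KO and 8.88 ± 0.13 in DKO crypts, but at 7.28 ± 0.21 and 6.76 ± 0.17 in the villi, where the difference was not called (adjusted p = 0.147). The markers of villus enterocytes (9 genes, among them Alpi, Lct and Fabp1) averaged 14.21 to 14.42 on the villus arrays, and those of crypt stem and Paneth cells (9 genes, among them Lgr5, Olfm4 and Lyz1) 12.10 to 12.78 on the crypt arrays. The same crypt markers ranged from 7.99 to 10.24 among the control villus arrays. Rb KO replicates 4 and 5 stood apart in an index of clock genes, at -1.64 and -1.51 against 0.23 to 1.24 for the other 3 Rb KO villus arrays and at -1.91 and -1.88 against 0.12 to 0.85 in crypts. Enzyme calls that were lost without them are given with and without them. Sex was read from Xist. In villi Xist was 12.41 and 12.25 on control replicates 1 and 4, and 13.18 on Rb KO replicate 3. It was 12.89 and 12.83 on DKO replicates 4 and 5, and 6.38 to 6.83 on the other villus arrays. Crypt arrays split by the same numbers, so females were fewer among the Rb KO arrays. With sex in the fit, 3 enzymes were called in Rb KO against control villi, as without it.

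**Figure D1:**
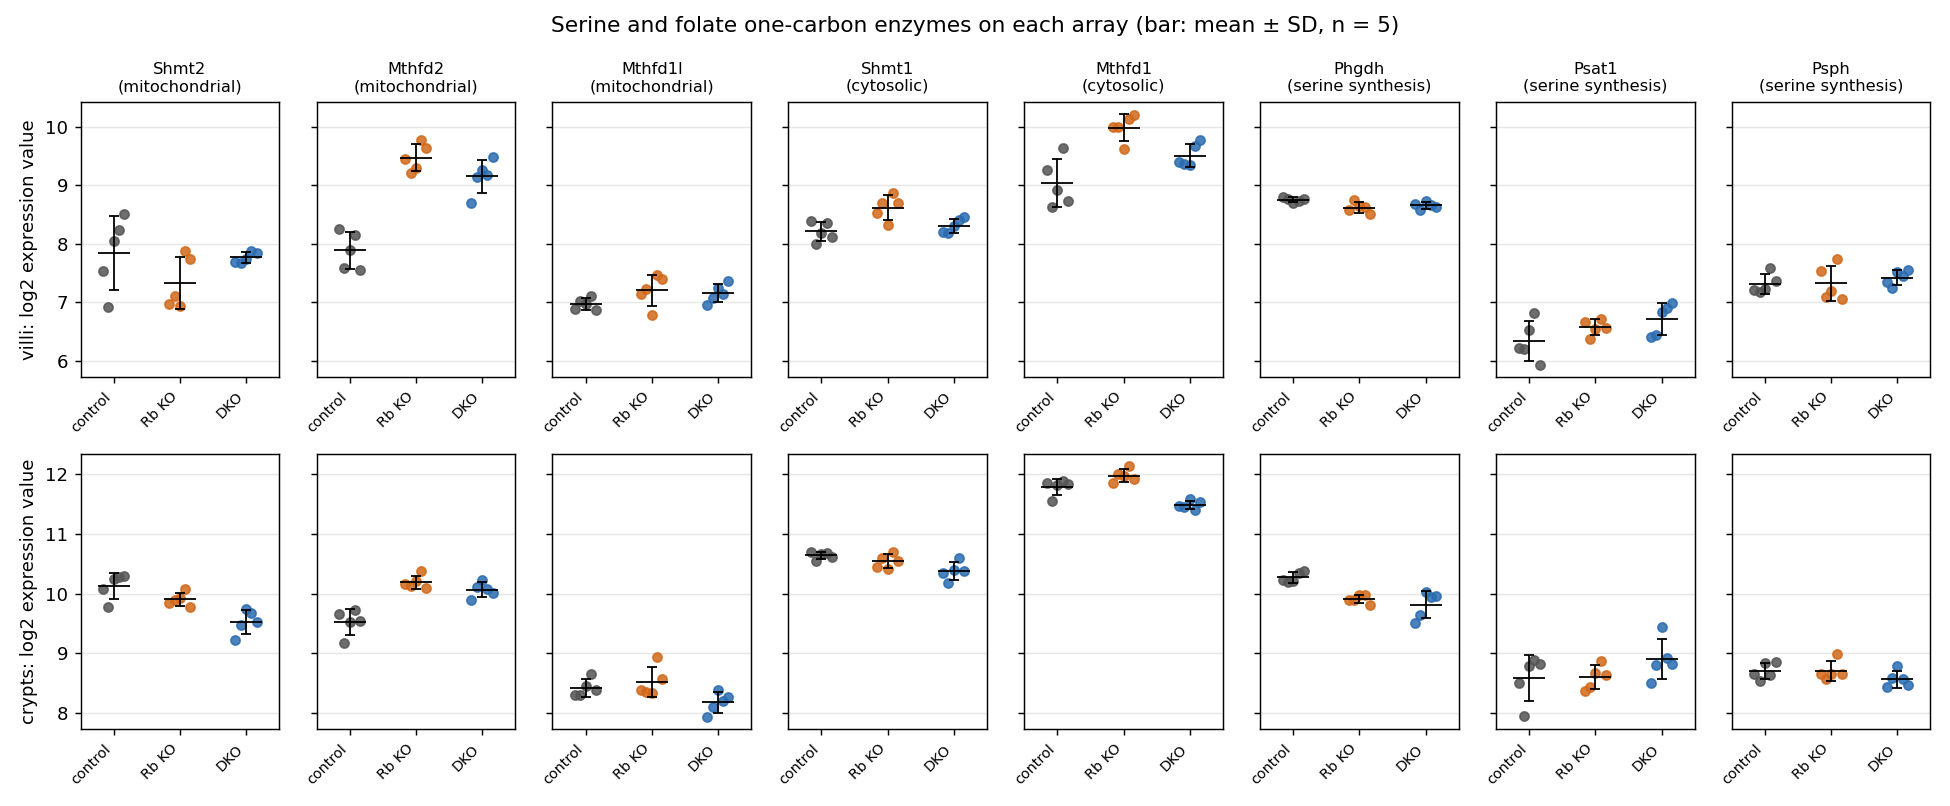
Log2 expression value of each enzyme on each of the 30 arrays, villi in the upper row and crypts in the lower, by genotype; each point is 1 array and the bars are mean ± SD, n = 5. Mthfd2 of all Rb KO and DKO arrays lies above all control arrays in both tissues, while Shmt2 of all DKO crypt arrays lies below all control and Rb KO crypt arrays.

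In villi, loss of Rb went with higher levels of 3 of the 8 enzymes, and they came from both branches: mitochondrial Mthfd2, 3.00-fold, and cytosolic Mthfd1, 1.93-fold, and Shmt1, 1.33-fold. Shmt2, the enzyme that feeds the mitochondrial branch, was not among them, nor was any enzyme of serine synthesis. The background is high here, since 30.5% of all tested genes were called in this comparison, 14.7% as higher and 15.8% as lower. With each array centred on its median, the share of higher genes among those called moved from 48.3% to 34.0%, and the 3 enzymes were still called. Their number fell to 2 with the mean of all probe sets of a gene, which lost Shmt1. The median difference over the 8 enzymes was 0.23 and that over all tested genes -0.02.

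Mthfd2, the mitochondrial methylenetetrahydrofolate dehydrogenase and cyclohydrolase, read 8.26, 7.59, 7.89, 8.14 and 7.55 in the control villi. In the Rb KO villi it read 9.45, 9.21, 9.30, 9.78 and 9.63. Every Rb KO array was above every control array, and the difference was 1.59 ± 0.16 (adjusted p = 3.00e-06). The second Mthfd2 probe set gave a larger difference, 2.32.

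Mthfd1, the cytosolic enzyme with synthetase, cyclohydrolase and dehydrogenase activities, read 9.26, 8.63, 8.92, 9.64 and 8.74 in the control villi and 9.996, 9.99, 9.62, 10.14 and 10.20 in the Rb KO villi. The groups overlapped by a single Rb KO array, replicate 3, which lay just under control replicate 4. The difference was 0.95 ± 0.17 (adjusted p = 5.07e-04), and the other 2 probe sets gave 1.23 and 0.64.

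Shmt1, the cytosolic serine hydroxymethyltransferase, read 8.39, 7.99, 8.19, 8.36 and 8.11 in the control and 8.53, 8.69, 8.32, 8.87 and 8.70 in the Rb KO villi. Again 4 of 5 Rb KO arrays were above all controls, with replicate 3 inside their range. The difference was 0.41 ± 0.10 (adjusted p = 0.00654). Its other 3 probe sets gave larger but noisier differences, 0.48 to 0.74, none of them called, and with the mean of all its probe sets Shmt1 was not called (0.59, adjusted p = 0.0855). Without Rb KO replicates 4 and 5 the call was lost too (0.30, adjusted p = 0.0606).

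Shmt2, the mitochondrial serine hydroxymethyltransferase, read 7.53, 6.91, 8.04, 8.24 and 8.51 in the control villi, the widest spread of any of the 8 enzymes in that group. It read 6.97, 7.11, 6.94, 7.88 and 7.74 in the Rb KO villi. The groups overlapped, and the difference of -0.52 ± 0.25 was not called (adjusted p = 0.140). All 4 probe sets gave a negative difference, and 1 of them, at -0.46, was called. Leaving out control replicate 2, the lowest control, gave -0.75 (adjusted p = 0.0150), and leaving out Rb KO replicates 4 and 5 gave -0.84 (adjusted p = 0.0300).

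Mthfd1l, the mitochondrial formyltetrahydrofolate synthetase, stood at 6.97 ± 0.10 in the control and 7.20 ± 0.27 in the Rb KO villi and was not called (0.23 ± 0.11, adjusted p = 0.141). Without Rb KO replicate 3, at 6.77 the lowest of its group, the difference was 0.34 (adjusted p = 0.0115). Phgdh, the dehydrogenase that commits 3-phosphoglycerate to serine, stood at 8.75 ± 0.04 in the control and 8.62 ± 0.09 in the Rb KO villi (-0.13 ± 0.06, adjusted p = 0.0861). That difference was called once the arrays were centred on their medians (-0.21, adjusted p = 0.0233) or Rb KO replicate 2 was left out (-0.17, adjusted p = 0.0303). Psat1, the aminotransferase, and Psph, the phosphatase of the last step, differed by 0.23 ± 0.15 and 0.01 ± 0.13.

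The proliferation markers moved with these enzymes: 7 of 7 tested, Mki67, Cdk1 and Top2a among them, were called higher in the Rb KO villi. Their mean ranged from 6.22 to 8.07 on the control and from 8.91 to 9.60 on the Rb KO villus arrays. Of 7 enteroendocrine markers 3 were called lower, Gcg, Neurod1 and Chga, and their mean was 10.001 to 10.426 in the control and 9.32 to 10.07 in the Rb KO villi. Of 8 markers of T cells and intraepithelial lymphocytes, 6 were called lower, and their mean was 10.46 to 11.07 in the control and 9.87 to 10.55 in the Rb KO villi. The difference between the 3′ and 5′ control probe sets of GAPDH, a sign of RNA quality, was 0.09 higher in the Rb KO villi (exact permutation test, two-sided p = 0.00794, the smallest that 5 against 5 arrays allow). The part of these markers and of RNA quality in the enzyme differences was not tested, except that all 3 calls held with the GAPDH difference or the crypt marker score as a covariate.

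Myc stood at 7.06 ± 0.60 in control villi and was not called lower on the villus arrays labelled DKO than in either other genotype (adjusted p = 0.354 against control), so loss of Myc was not shown on these arrays. In the DKO villi Mthfd2 was called above control, and none of the 8 enzymes was called different from Rb KO by limma, though 2 of them had an unadjusted p under 0.05. Of all tested genes, 7.83% were called between DKO and Rb KO villi, 5.9% as higher and 1.92% as lower, and 17.1% between DKO and control villi, 11.3% as higher and 5.78% as lower. Centring the arrays on their medians moved the share of higher genes among those called from 75.4% to 53.8% in the first comparison and from 66.1% to 25.1% in the second, where it lowered the median gene by 0.11 and quantile normalization gave 55.4%. Both comparisons share the DKO arrays, and each shares its other arrays with the comparison of Rb KO and control.

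Mthfd2 read 8.71, 9.14, 9.26, 9.18 and 9.48 in the DKO villi. All 5 arrays were above every control array, and 3 of them were below every Rb KO array. The difference from control was 1.27 ± 0.16 (adjusted p = 4.68e-05), 2.40-fold, and that from Rb KO was -0.32 ± 0.16 (adjusted p = 0.231). Against control, 7 of 7 proliferation markers were called higher in the DKO villi, with a mean of 7.76 to 9.21 on the DKO arrays. The GAPDH difference was 0.04 higher and the clock index 1.67 higher (each p = 0.00794 in the exact permutation test). Mthfd2 was still called with the GAPDH difference (1.38, adjusted p = 9.14e-05) or the clock index (1.48, adjusted p = 1.16e-04) in the fit, and the part of the proliferation markers was not tested.

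Mthfd1 read 9.40, 9.37, 9.34, 9.67 and 9.77 in the DKO villi, between the levels of control and Rb KO. It was called against neither, at 0.47 ± 0.17 from control (adjusted p = 0.0671) and -0.48 ± 0.17 from Rb KO (adjusted p = 0.0934). Without control replicate 4, the control array with the highest Mthfd1, the difference from control was called (0.62, adjusted p = 0.00645). Shmt1 stood at 8.31 ± 0.12, a difference of -0.31 ± 0.10 from Rb KO (adjusted p = 0.0772) and 0.10 ± 0.10 from control (adjusted p = 0.535). Without Rb KO replicate 3 the first of these was called (-0.39, adjusted p = 0.0300).

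The 3 enzymes that were higher in Rb KO villi all had a negative difference between DKO and Rb KO. They were picked as high on the same Rb KO arrays, which favours that sign, so the shared sign carries no weight by itself. Whether they were called depended on the fit. With the crypt marker score of each array as a covariate, Mthfd1 differed by -0.59 (adjusted p = 3.94e-04), Shmt1 by -0.37 (adjusted p = 0.00336) and Mthfd2 by -0.40 (adjusted p = 0.0275). That score, centred on the tissue, was -0.39 ± 0.93 in the control, 0.06 ± 0.47 in the Rb KO and 0.33 ± 0.46 in the DKO villi. Markers of T cells and intraepithelial lymphocytes were called higher in the DKO than in the Rb KO villi in 4 of 8 cases, as were enteroendocrine markers in 4 of 7 and those of exocrine pancreas in 2 of 5, and the part of these lists in the enzyme differences was not tested.

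Shmt2 stood at 7.77 ± 0.09 in the DKO villi, with all 5 arrays between 7.68 and 7.88 inside the range of the controls. The difference from Rb KO was 0.44 ± 0.25 (adjusted p = 0.298), and the other Shmt2 probe sets gave 0.31, 0.02 and -0.003. Mthfd1l, Phgdh and Psph differed from Rb KO by -0.04, 0.04 and 0.10 and were called in neither comparison. Psat1 read 5.93 to 6.82 in the control and 6.40 to 6.98 in the DKO villi, a difference of 0.37 ± 0.15 that was not called (adjusted p = 0.112) but was without control replicate 4 (0.49, adjusted p = 0.0229).

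**Figure D2:**
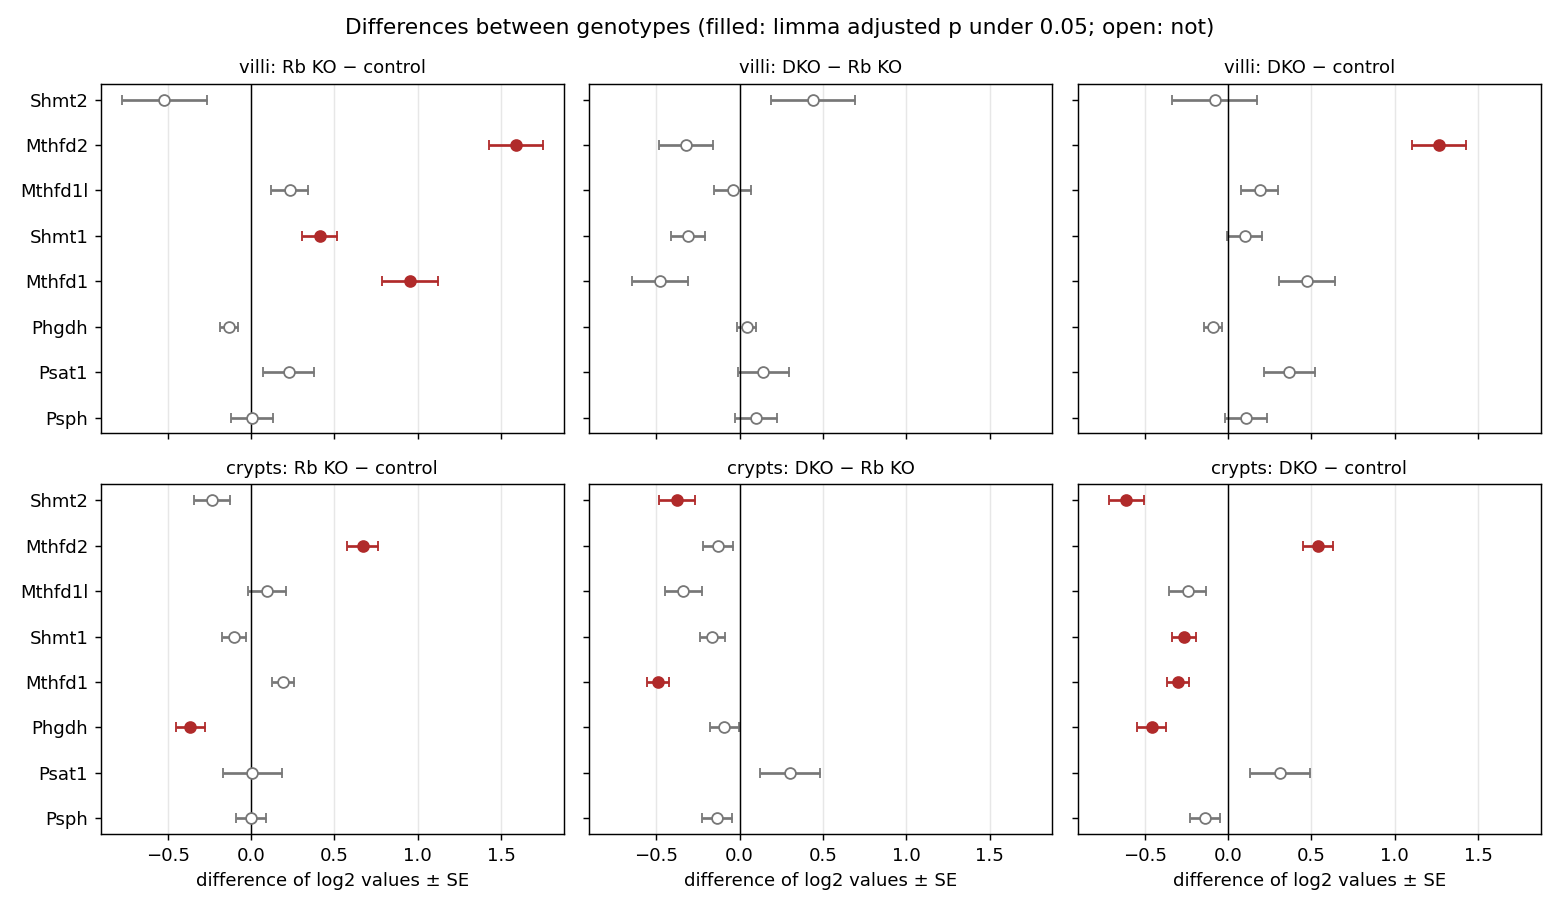
Difference of log2 values between genotypes for each enzyme, with its SE, in villi (upper row) and crypts (lower row); filled points passed a limma adjusted p of 0.05. Mthfd2 is filled and to the right in all 4 comparisons with control, and 4 enzymes are filled and to the left in DKO against control crypts.

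In crypts, loss of Rb alone went with a rise of Mthfd2 and a fall of Phgdh, and with no other called change among the 8 enzymes. Of all tested genes, 10.3% were called, 7.33% as higher and 2.97% as lower, and median centring moved the share of higher genes among those called from 71.2% to 57.4%, quantile normalization to 60.3%. The median difference over the 8 enzymes was 0.00 and over all genes also 0.00.

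Mthfd2 read 9.65, 9.18, 9.52, 9.73 and 9.54 in the control crypts and 10.16, 10.13, 10.21, 10.38 and 10.09 in the Rb KO crypts. The groups did not overlap. The difference was 0.67 ± 0.09 (adjusted p = 2.49e-04), 1.59-fold.

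Phgdh read 10.22, 10.19, 10.22, 10.35 and 10.38 in the control and 9.90, 9.89, 9.98, 9.98 and 9.81 in the Rb KO crypts. All Rb KO arrays were below all controls, by a mean of -0.36 ± 0.09 (adjusted p = 0.0135). A pair of further Phgdh probe sets gave -0.41 and -0.55 and were also called. The fourth gave 0.48 ± 0.71 and was not correlated with the one used over the 15 crypt arrays (r = -0.11). On it control replicate 5 read 4.91 and the other controls 9.59 to 9.98, above all Rb KO arrays (9.11 to 9.46). Without Rb KO replicates 4 and 5 the difference was -0.35 and no longer called (adjusted p = 0.0688), and it was -0.30 when the fit held the crypt marker score (adjusted p = 0.0743).

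Mthfd1 stood at 11.79 ± 0.13 in the control and 11.98 ± 0.10 in the Rb KO crypts, a difference of 0.19 ± 0.07 (adjusted p = 0.0873). Of its 3 probe sets, 1 passed at 0.24. Shmt2 differed by -0.23 ± 0.11 (adjusted p = 0.198), Shmt1 by -0.10 ± 0.07 (adjusted p = 0.432) and Mthfd1l by 0.09 ± 0.11 (adjusted p = 0.676). Psat1 and Psph differed by 0.01 ± 0.18 and 0.00 ± 0.09.

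The proliferation markers were called higher in the Rb KO crypts in 5 of 7 cases. Their mean was 10.66 to 10.91 on the control, 11.14 to 11.39 on the Rb KO and 11.06 to 11.46 on the DKO crypt arrays, and 7 of 7 were called in DKO against control. Of the enteroendocrine markers 3 of 7 were called lower and 1 higher in the Rb KO crypts, with a mean of 10.10 to 10.72 in the control and 9.82 to 10.17 in the Rb KO crypts. The part of either list in the differences of Mthfd2 and Phgdh was not tested.

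With Myc lost as well, the crypts had less Mthfd1 and Shmt2 than Rb KO crypts, and less Shmt2, Phgdh, Mthfd1 and Shmt1 than control crypts, while Mthfd2 was called above control. Between DKO and Rb KO crypts 12.4% of all genes were called, 5.17% as higher and 7.22% as lower, and between DKO and control crypts 20.2%, 11% as higher and 9.19% as lower. Median centring moved the share of higher genes among those called from 41.7% to 53.3% in the first comparison. The median over the 8 enzymes was -0.15 in the first and -0.25 in the second, with 0.01 over all genes in each.

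Mthfd1 read 11.86, 11.56, 11.82, 11.88 and 11.84 in the control, 11.86, 12.01, 11.97, 12.13 and 11.92 in the Rb KO, and 11.47, 11.46, 11.59, 11.41 and 11.53 in the DKO crypts. Every DKO array was below every Rb KO array, and only DKO replicate 3 was not below every control, of which replicate 2 was the lowest. The difference from Rb KO was -0.49 ± 0.07 (adjusted p = 2.68e-04), 1.40-fold lower, and its other probe sets gave -0.55 and -0.53. The difference from control was -0.30 ± 0.07 (adjusted p = 0.00452), and it was not called when all 30 arrays were fitted together (adjusted p = 0.142).

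Shmt2 read 10.08, 9.78, 10.25, 10.28 and 10.31 in the control, 9.84, 9.90, 9.94, 10.08 and 9.78 in the Rb KO, and 9.22, 9.48, 9.75, 9.68 and 9.53 in the DKO crypts. The DKO arrays were below all arrays of both other genotypes, DKO replicate 3 by the least. The difference from control was -0.61 ± 0.11 (adjusted p = 7.94e-04), 1.53-fold lower, and all 4 probe sets were called, at -0.31 to -0.61. The difference from Rb KO was smaller, -0.38 ± 0.11 (adjusted p = 0.0309), and its call was not stable. The other 3 probe sets gave -0.10 to -0.31 and were not called, and leaving out 1 array removed the call in 7 of 10 cases: Rb KO replicates 1, 2, 3 and 4 (adjusted p = 0.0509, 0.0581, 0.0642 and 0.0796) and DKO replicates 1, 2 and 5 (adjusted p = 0.0761, 0.0606 and 0.0551), with differences from -0.43 to -0.30 over all 10. Without both Rb KO replicates 4 and 5 it was -0.36 (adjusted p = 0.0979).

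Shmt1 read 10.71, 10.55, 10.66, 10.69 and 10.62 in the control and 10.34, 10.18, 10.40, 10.60 and 10.38 in the DKO crypts. All DKO arrays but replicate 4 were below all controls, and the difference was -0.27 ± 0.07 (adjusted p = 0.0160), 1.20-fold lower. It was not called with the GAPDH difference in the fit (-0.19, adjusted p = 0.0829) or without control replicates 1 and 4 (-0.23, adjusted p = 0.0857). The other 3 Shmt1 probe sets gave larger differences from control, -0.42 to -0.50, and were all called. Against Rb KO the probe set used gave -0.16 ± 0.07, which was not called (adjusted p = 0.164), whereas the other 3 gave -0.31 to -0.45 and were all called.

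Phgdh read 9.51, 9.64, 10.03, 9.94 and 9.96 in the DKO crypts, below all control arrays, a difference of -0.46 ± 0.09 (adjusted p = 0.00142). Against Rb KO it differed by -0.09 ± 0.09 (adjusted p = 0.543). Mthfd2 read 9.89, 10.11, 10.23, 10.08 and 10.02, above all control arrays (0.54 ± 0.09, adjusted p = 6.24e-04) with a difference of -0.13 ± 0.09 from Rb KO (adjusted p = 0.400).

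Mthfd1l stood at 8.52 ± 0.25 in the Rb KO and 8.18 ± 0.17 in the DKO crypts, with 4 of 5 DKO arrays below all Rb KO arrays. The difference of -0.34 ± 0.11 was not called (adjusted p = 0.0624), but it was without DKO replicate 3 (-0.39, adjusted p = 0.0487). Psat1 was the one enzyme with a positive difference from Rb KO, 0.30 ± 0.18 (adjusted p = 0.304), and Psph differed by -0.14 ± 0.09 (adjusted p = 0.362). The crypt marker score was 0.30 higher in DKO than in Rb KO crypts (exact permutation test, p = 0.0159). With it as a covariate Mthfd1 was still called (-0.50, adjusted p = 0.00267), Shmt2 was not (-0.45, adjusted p = 0.0541), and none of the other 6 enzymes was. Exocrine pancreas markers averaged 7.71 to 12.14 on the DKO, 8.05 to 10.20 on the Rb KO and 7.87 to 10.65 on the control crypt arrays. Markers of T cells and intraepithelial lymphocytes averaged 7.71 to 8.18, 7.27 to 8.11 and 7.23 to 7.76 in that order. The part of these lists in the enzyme differences was not tested.

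**Figure D3:**
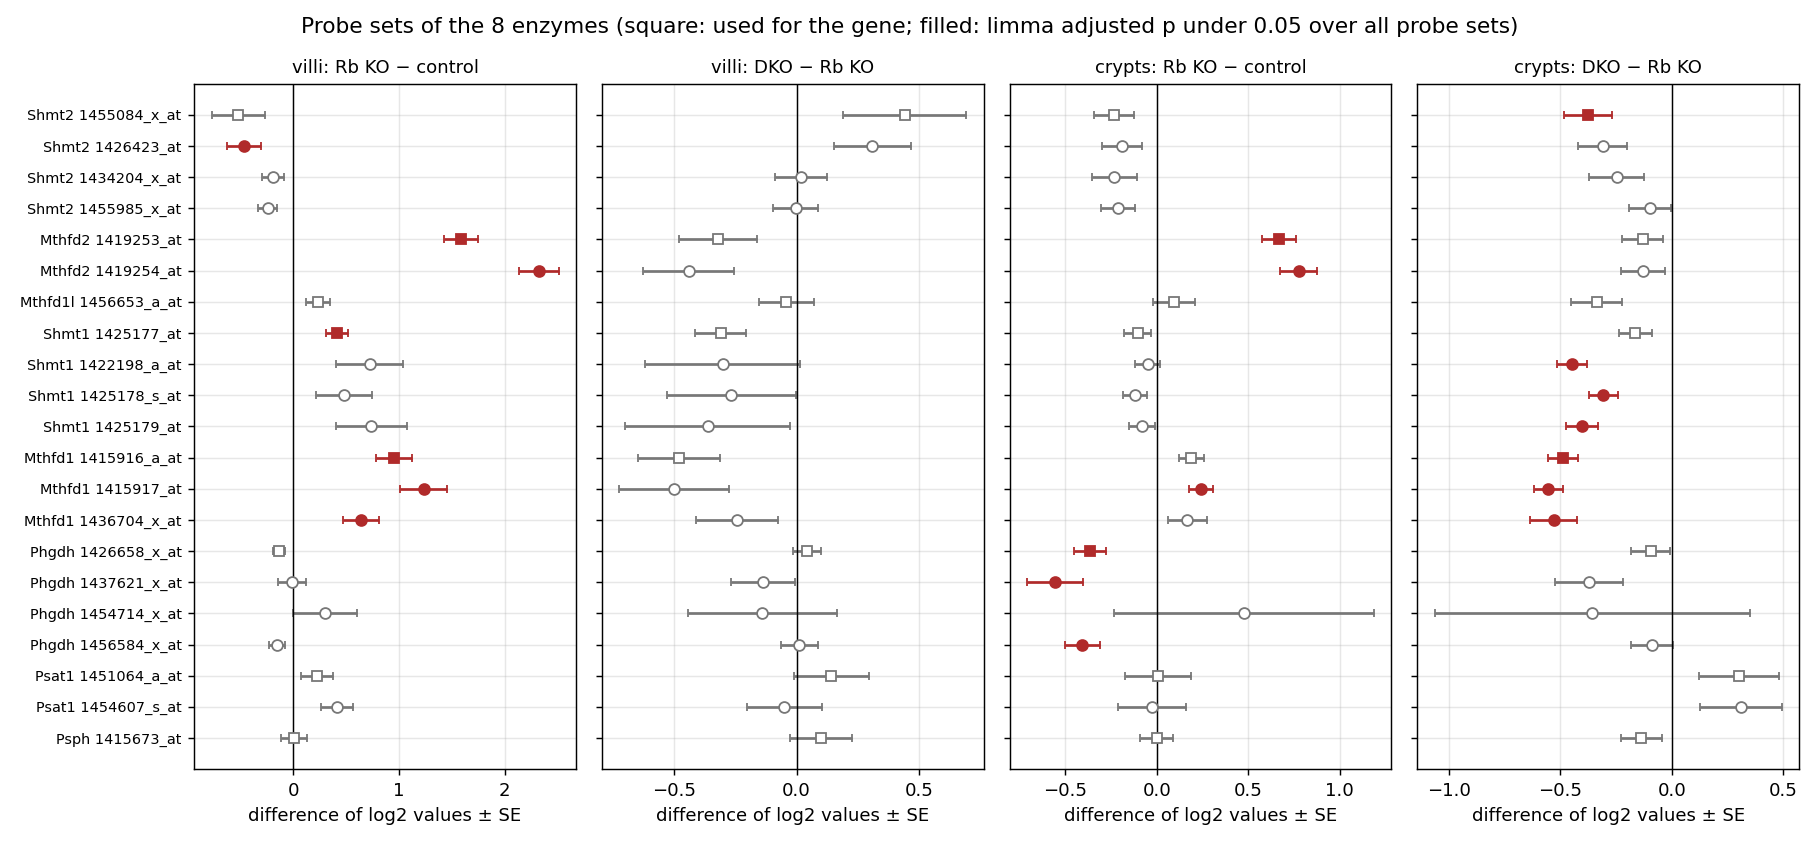
Difference of log2 values with its SE for each of the 21 probe sets of the 8 enzymes in 4 comparisons, each on its own scale; squares mark the probe set used for the gene and filled symbols a limma adjusted p under 0.05 over all probe sets. Both Mthfd2 and all 3 Mthfd1 probe sets lie to the right of 0 in Rb KO against control villi, and 1 of 4 Phgdh probe sets lies to the right of 0 in Rb KO against control crypts.

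The response to Rb loss was larger in villi than in crypts for 3 enzymes. The difference between Rb KO and control was 0.92 ± 0.19 larger in villi for Mthfd2 (adjusted p = 0.00174), 0.76 ± 0.19 for Mthfd1 (adjusted p = 0.00671) and 0.51 ± 0.13 for Shmt1 (adjusted p = 0.00740). Without Rb KO replicates 4 and 5, that of Mthfd1 was 0.67 (adjusted p = 0.0637). Of all genes 13.7% were called in this interaction, 6.76% as higher and 6.98% as lower. The difference between DKO and Rb KO was not called by limma to differ between the tissues for any of the 8 enzymes, 1 of which had an unadjusted p under 0.05, in a comparison where 3.4% of genes were called, 2.29% as higher and 1.11% as lower. Median centring moved the share of higher genes among those called from 67.3% to 33.9% there, and quantile normalization to 53.9%. Shmt2 had the largest such difference, 0.82 ± 0.29 (adjusted p = 0.105), positive in villi and negative in crypts. With the animal as a block, for villi and crypts of the same number, it was called (adjusted p = 0.0216). These values are of the Shmt2 probe set used. Between DKO and Rb KO its other probe sets gave 0.31, 0.02 and -0.003 in villi and -0.31, -0.25 and -0.10 in crypts.

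Whether the branches moved together was asked on each array, as the log2 value of a mitochondrial enzyme minus that of its cytosolic counterpart. There were 18 comparisons of 3 pairs of enzymes, tested by exact two-sided permutation of 5 against 5 arrays with Benjamini-Hochberg adjustment over the 18, and 9 passed. The level of such a difference has no meaning between probe sets, but its change between genotypes shows that the probe sets used changed unequally. Probe sets of the same gene can do so too: in Rb KO against control villi those of Mthfd1 gave 0.95, 1.23 and 0.64. The part of unequal probe set response in these changes was not tested. The pairs of Mthfd2 and of Mthfd1l subtract the same Mthfd1 values, so their tests are not independent. The mitochondrial enzymes did not all move one way relative to their cytosolic counterparts: in Rb KO villi the difference rose for Mthfd2 and fell for Shmt2 and Mthfd1l.

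Mthfd2 minus Mthfd1 was -1.001, -1.05, -1.03, -1.50 and -1.19 in the control villi, -0.55, -0.78, -0.32, -0.36 and -0.57 in the Rb KO villi, and -0.70, -0.23, -0.08, -0.48 and -0.29 in the DKO villi. All Rb KO and all DKO arrays were above all controls. The rise was 0.64 in Rb KO and 0.79 in DKO (each adjusted permutation p = 0.0179), and the change of 0.16 between them was not called (adjusted p = 0.333 in the exact permutation test).

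In crypts the same pair stood at -2.27 ± 0.09 for controls, -1.79 ± 0.07 after loss of Rb and -1.43 ± 0.11 in DKO. The 3 groups were fully apart, in that order, with changes of 0.48 from control to Rb KO and 0.36 from Rb KO to DKO (each adjusted permutation p = 0.0179). The first step came with a rise of Mthfd2 and the second with a fall of Mthfd1.

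Shmt2 minus Shmt1 was -0.87, -1.08, -0.15, -0.12 and 0.40 in the control villi, -1.56, -1.59, -1.38, -0.99 and -0.96 in the Rb KO villi, and -0.51, -0.51, -0.56, -0.53 and -0.62 in the DKO villi. All DKO arrays were above all Rb KO arrays, a change of 0.75 (adjusted permutation p = 0.0179), while control replicate 2 lay within the Rb KO range. The change of -0.93 from control to Rb KO passed in the exact test (adjusted permutation p = 0.0476) and in limma, fitted among all genes (adjusted p = 0.00444). After quantile normalization it was -0.93 with an adjusted permutation p of 0.0571, and it missed the threshold in 9 of 10 fits that left out 1 array, all but the one without control replicate 2, with changes from -1.11 to -0.74. The smallest permutation p for 4 against 5 arrays is 0.0159 before adjustment, so those fits had less room to pass.

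In crypts Shmt2 minus Shmt1 stood at -0.51 ± 0.19 for controls, -0.64 ± 0.11 after loss of Rb and -0.85 ± 0.19 in DKO, and none of the 3 changes passed in the exact permutation test. That from control to DKO, -0.34, had an adjusted permutation p of 0.0571 and passed without control replicate 2 (-0.41, adjusted permutation p = 0.0318). Shmt2 and Shmt1 were both called lower in those crypts. The pair used the Shmt2 probe set that fell most, -0.61 against -0.50, -0.48 and -0.31 for its others. It used the Shmt1 probe set that fell least, -0.27 against -0.50, -0.42 and -0.48.

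Mthfd1l minus Mthfd1 fell by 0.72 from control to Rb KO villi and rose by 0.44 from Rb KO to DKO villi (each adjusted permutation p = 0.0179), with groups that did not overlap. Over these steps Mthfd1l itself differed by 0.23 and -0.04, and Mthfd1 by 0.95 and -0.48. In limma, fitted as a row among all genes, the second change had an adjusted p of 0.0679. In crypts its changes were -0.09, 0.15 and 0.06, and none passed.

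**Figure D4:**
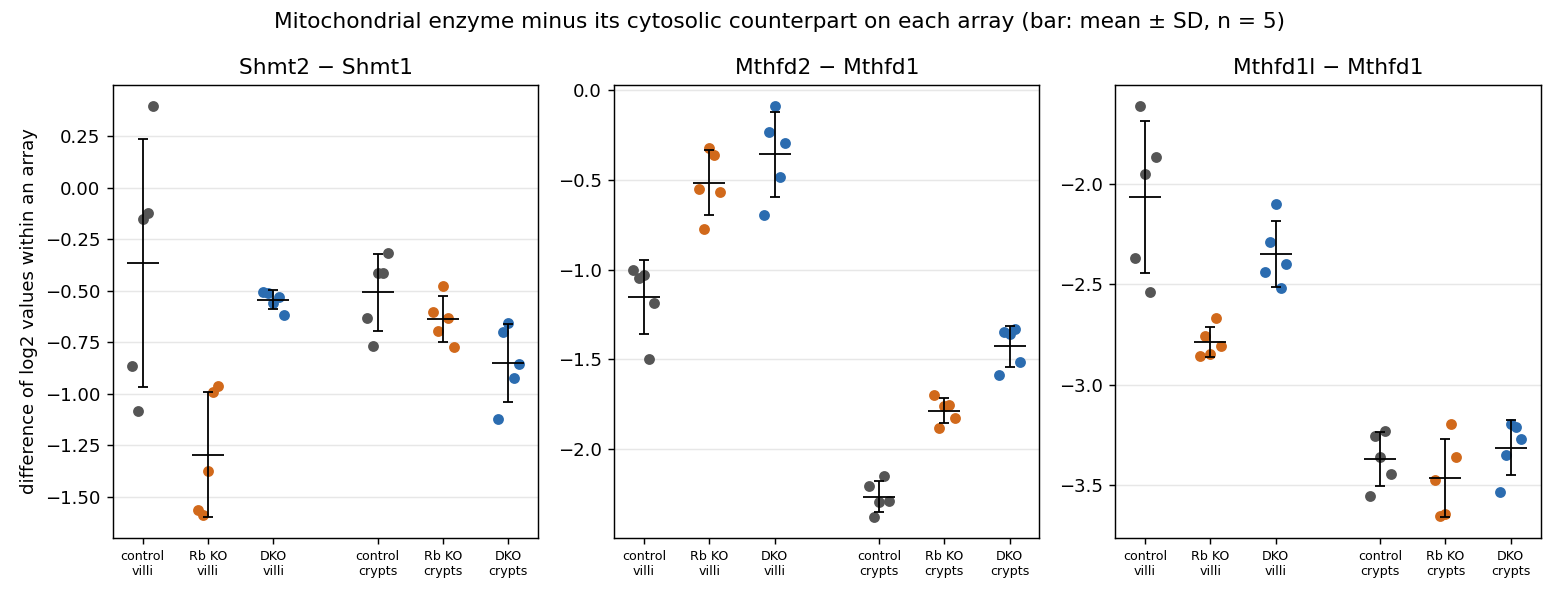
Log2 value of a mitochondrial enzyme minus that of its cytosolic counterpart on each array, by genotype and tissue; each point is 1 array and the bars are mean ± SD, n = 5. Mthfd2 minus Mthfd1 steps upward from control to Rb KO to DKO crypts without overlap, and Shmt2 minus Shmt1 is lowest in Rb KO villi.

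The genes around the 8 enzymes were taken from 9 lists of the pathway, and up to 4 members of smallest p are named among those called. Their counts stand beside the share of all tested genes called, in Rb KO villi 14.7% higher and 15.8% lower, and a list near that share is no result about the list. Of the other cytosolic folate genes in Rb KO villi, 2 of 6 were called higher and 1 lower (median 0.21, all genes -0.02). Tyms, which makes thymidylate, rose by 1.33 ± 0.12 (adjusted p = 7.72e-07) and Gart, of purine synthesis, by 0.69 ± 0.23 (adjusted p = 0.0346), while Aldh1l1, which oxidises formyl folate, fell by 1.07 ± 0.15 (adjusted p = 6.74e-05). Of the folate uptake and retention genes, 0 of 6 were higher and 2 lower (median -0.23): Slc19a1, the reduced folate carrier, by -1.04 ± 0.17 (adjusted p = 2.16e-04) and Slc46a1, the proton-coupled folate transporter of the gut, by -0.92 ± 0.18 (adjusted p = 0.00133).

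Other mitochondrial folate genes gave 1 of 6 lower in the Rb KO villi, Sardh, the sarcosine dehydrogenase, at -0.67 ± 0.10 (adjusted p = 8.34e-05), with a list median of -0.03. Of the glycine cleavage genes 1 of 3 was lower, Dld (-0.36 ± 0.09), a subunit shared with other dehydrogenase complexes. In the methionine cycle and transsulfuration 3 of 10 were higher and 2 lower (median 0.00), with Ahcy, which splits S-adenosylhomocysteine, at 1.09 ± 0.21 and Mtrr, which reactivates methionine synthase, at 0.53 ± 0.14, and Mat2b and Ahcyl2 at -0.47 ± 0.08 and -0.28 ± 0.08. Among serine and neutral amino acid transporters 3 of 10 were higher (median 0.02), Slc38a1 at 0.71 ± 0.13, Slc38a2 at 0.69 ± 0.10 and Slc1a5 at 0.37 ± 0.13.

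Genes that break down or use serine split 3 higher and 4 lower of 11 in the Rb KO villi (median -0.10), Srr, the serine racemase, having the smallest p (-0.80 ± 0.09, adjusted p = 1.01e-05). Of the ATF4 list, which covers the amino acid response, 4 of 14 were higher and 2 lower (median 0.15), with Atf4 itself at 0.42 ± 0.08 and Cebpb at 0.28 ± 0.09, but Aldh18a1 and Sesn2 at -0.57 ± 0.13 and -0.47 ± 0.13. On the glycolytic path to 3-phosphoglycerate 4 of 9 were higher and 1 lower (median 0.22). They were Slc2a1, the glucose transporter, at 0.55 ± 0.10, Pfkp at 0.41 ± 0.07, Aldoa at 0.39 ± 0.09 and Pgk1 at 0.26 ± 0.06.

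Between DKO and Rb KO villi, 5.9% of all tested genes were called higher and 1.92% lower, and the list counts stand beside those shares. Slc19a1 was higher by 0.61 ± 0.17 (adjusted p = 0.0362) and Ggh, which trims folate polyglutamates, by 0.91 ± 0.26 (adjusted p = 0.0416), 2 of 6 uptake and retention genes. Sardh was higher by 0.34 ± 0.10, as were 3 of 11 genes of serine use, Srr (0.41 ± 0.09), Ptdss2 (0.31 ± 0.07) and Serinc1 (0.32 ± 0.08). The remaining 6 lists had no member called in that comparison by limma, with 9 of their 52 tested genes at an unadjusted p under 0.05.

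In crypts with Rb loss alone, 7.33% of all tested genes were called higher and 2.97% lower, and the list counts stand beside those shares. Tyms rose by 0.45 ± 0.10 (adjusted p = 0.00872, 1 of 6 other cytosolic folate genes), Slc19a1 fell by 0.28 ± 0.08 (adjusted p = 0.0291, 1 of 6 uptake and retention genes), and Pfkp rose by 0.43 ± 0.11 (1 of 9 glycolytic genes). Of the ATF4 list 3 of 14 were higher, Chac1 at 0.37 ± 0.08, Atf3 at 0.33 ± 0.10 and Cebpb at 0.23 ± 0.07, and Aldh18a1 was lower, at -0.36 ± 0.09. Serinc1 was the single gene of serine use called (-0.19 ± 0.05), and the other 4 lists had no member called by limma, with 5 of 29 genes at an unadjusted p under 0.05.

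Between DKO and Rb KO crypts, 5.17% of all genes were called higher and 7.22% lower. Each of the lists of other mitochondrial and other cytosolic folate genes had 2 of 6 members called lower there and none higher. In mitochondria these were Slc25a32, the folate carrier of the inner membrane (-0.51 ± 0.07, adjusted p = 1.41e-04), and Mthfd2l, the relative of Mthfd2 (-0.55 ± 0.08, adjusted p = 3.61e-04), in the cytosol the purine enzymes Atic (-0.62 ± 0.06, adjusted p = 2.02e-05) and Gart (-0.41 ± 0.08, adjusted p = 0.00375). The list medians were -0.10 and -0.03, with 0.01 over all genes. Against control, Mthfd2 and Mthfd2l of the DKO crypts differed by 0.54 ± 0.09 and -0.43 ± 0.08, a contrast that was not tested as such. Further called genes were Mtrr (-0.31 ± 0.06, 1 of 10), Slc7a5 (-0.49 ± 0.11) and Slc1a4 (0.51 ± 0.12) of 10 transporters, Sptlc2 (-0.42 ± 0.12, 1 of 11), Nupr1 (0.81 ± 0.21) and Aldh18a1 (0.32 ± 0.09) of 14 in the ATF4 list, and Gapdh (0.24 ± 0.05, 1 of 9).

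Against control, with which the Rb KO arrays were compared too, the DKO tissues gave these values. In DKO villi Tyms was 0.96 ± 0.12 higher (adjusted p = 3.44e-05) and Aldh1l1 differed by -0.58 ± 0.15, Slc46a1 by -0.56 ± 0.18 and Sardh by -0.32 ± 0.10. Of all genes 11.3% were called higher and 5.78% lower in this comparison, shares that scaling moved as given above. Glycolysis had 4 of 9 higher, Pfkp (0.35 ± 0.07), Pgk1 (0.28 ± 0.06), Slc2a1 (0.36 ± 0.10) and Aldoa (0.30 ± 0.09). Of 10 transporters Slc38a1 (0.89 ± 0.13) and Slc38a2 (0.43 ± 0.10) were higher and Sfxn1, a mitochondrial serine carrier, lower (-0.18 ± 0.06). In DKO crypts Tyms was 0.53 ± 0.10 higher (adjusted p = 0.00137), whereas Atic (-0.59 ± 0.06, adjusted p = 8.70e-06) and Gart (-0.46 ± 0.08) were lower, as were Slc25a32 (-0.50 ± 0.07) and Mthfd2l. Of the uptake and retention genes, Slc19a1 (-0.49 ± 0.08, adjusted p = 2.66e-04) and Fpgs, which adds the glutamate tail that keeps folate in the cell (-0.46 ± 0.08), were lower and Ggh was higher (0.38 ± 0.13, adjusted p = 0.0480). In the same crypts, where 11% of all genes were called higher and 9.19% lower, glycolysis had 3 of 9 higher and 1 lower, the ATF4 list 3 of 14 higher and the transporters 2 of 10 higher and 1 lower.

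**Figure D5:**
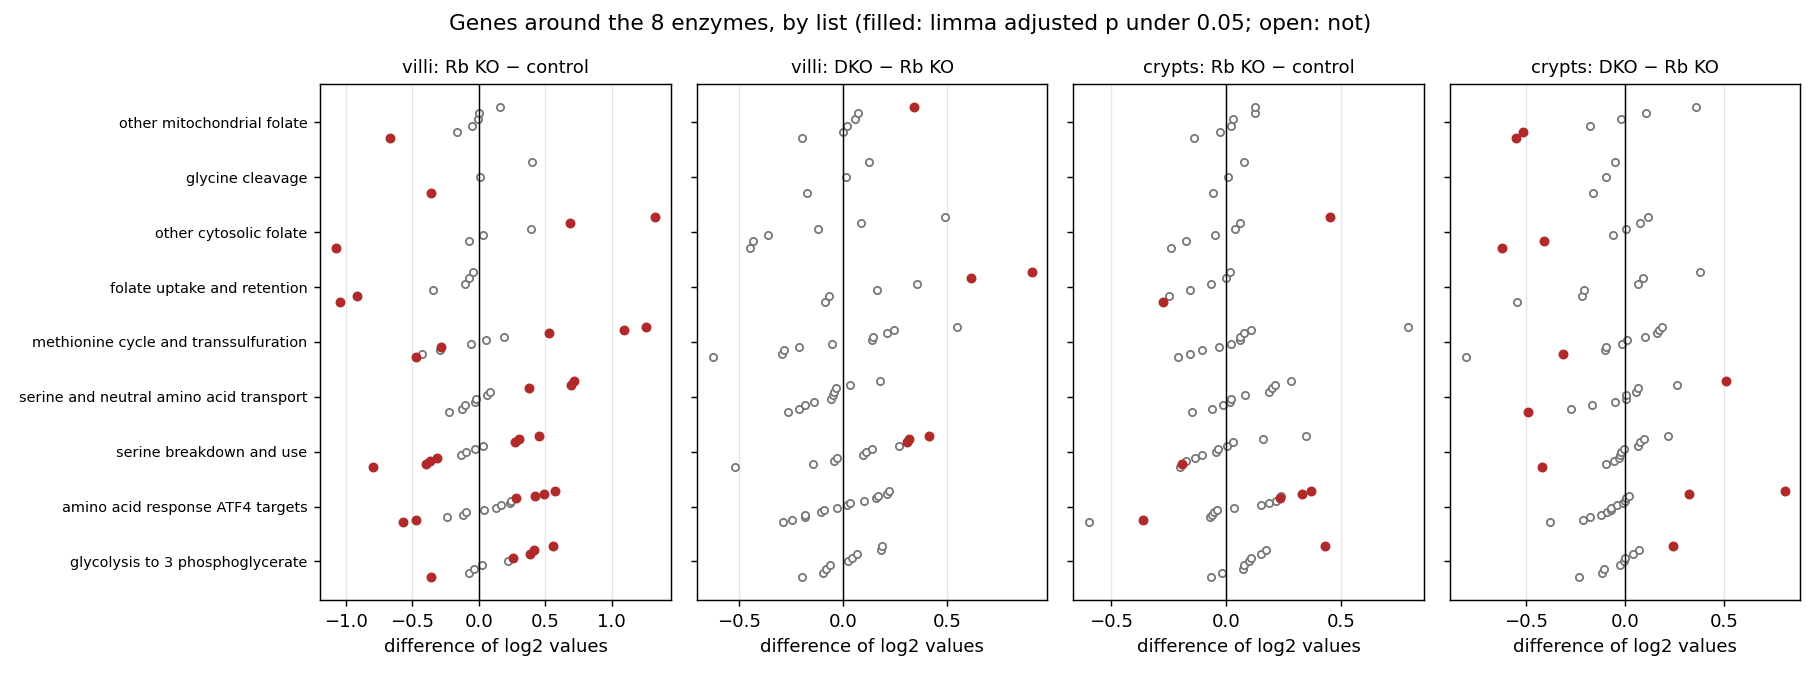
Difference of log2 values of each tested gene in 9 lists of the pathway in 4 comparisons, each on its own scale; filled points passed a limma adjusted p of 0.05. Each list holds genes on both sides of 0 in at least 1 comparison, and the folate uptake list has 2 filled points to the left in Rb KO villi and 2 to the right in DKO against Rb KO villi.

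The genes most like each enzyme were found by Pearson's r over the 30 arrays after centring each tissue on its mean. Genes of a pathway and of a cell state share these arrays and their group differences, so r is a description without a test. Mthfd2 was closest to Cdc6 (r = 0.970), which licenses replication origins, Mcm10 (r = 0.968), of the replication fork, and Ube2s (r = 0.968), of the anaphase-promoting complex. The villus levels of Cdc6 were 5.51 ± 0.43 for controls, 8.64 ± 0.22 after loss of Rb and 8.14 ± 0.44 in DKO. Mthfd1 was closest to Nop56 (r = 0.962), of small nucleolar ribonucleoproteins, Thop1 (r = 0.948) and Utp4 (r = 0.939), of ribosome assembly. In crypts Nop56 had the order of Mthfd1, with 11.01 ± 0.15 for controls, 11.18 ± 0.11 after loss of Rb and 10.76 ± 0.13 in DKO.

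Shmt1 was closest to Fasn (r = 0.893), Nat10 (r = 0.888) and Noc4l (r = 0.878), and Shmt2 to Atp23 (r = 0.815), Clns1a (r = 0.797) and Mcrip2 (r = 0.769). For Mthfd1l, Phgdh, Psat1 and Psph the closest genes, Nkrf, Tfpi, Rbmx and Fra10ac1, had r between 0.777 and 0.794. Among the 8 enzymes themselves the highest value was that of Shmt1 with Mthfd1 (r = 0.824), both cytosolic, and the next that of Mthfd2 with Mthfd1 (r = 0.758). Shmt2 and Mthfd2, both mitochondrial, had r = -0.266, and Phgdh had -0.041 with Psat1 and 0.241 with Psph.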

How the data were processed

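The deposited table holds 45101 probe sets on 30 arrays, and its values were taken as log2 expression values from their range (2.64 to 15.21), since the labels name no unit. How the authors normalized and summarized these log2 values is not given in the sources used here. The medians differ between the tissues and are close within each, so the tissues were treated as normalized separately. Groups were taken from the sample titles. The platform annotation pairs 34958 probe sets with 1 symbol, 932 with several symbols and 9211 with no symbol, and only those with 1 symbol were named. Each of 18194 genes was read from its probe set of highest mean, and the 14548 with a mean above the 30th percentile of all probe sets (5.33) were tested.

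Each tissue was fitted alone, over its 15 arrays and 3 genotypes, with limma 3.58.1 in R 4.3.3 (lmFit and eBayes, two-sided, Benjamini-Hochberg over all tested genes, threshold 0.05). Differences between tissues were interactions over all 30 arrays. Pairs of enzymes were compared with exact permutation tests (scipy 1.17.1), whose smallest p for 5 against 5 arrays is 0.00794. The fits were checked on simulated data. Alternatives covered the choice of probe set, normalization, filter, threshold, arrays fitted, covariates, the replicate block and leaving out arrays.

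The members and lists were chosen with earlier results of these data known. The genes named are the 8 enzymes, up to 4 members of smallest p per list among those called, and the 3 genes of highest r with an enzyme. The crypt marker score averages 9 genes of crypt stem and Paneth cells, and the clock index subtracts the mean of 5 genes (Nr1d2, Tef, Dbp, Per2, Per3) from the mean of 4 (Clock, Arntl, Nfil3, Npas2), each centred on its tissue. The deviations of a villus array and the crypt array that shared its genotype and number were positively correlated in 15 of 15 pairs (r between 0.246 and 0.560), and such a pair was taken as the same animal. Arrays of a tissue that shared a number between genotypes had a median r from -0.086 to 0.282 over the comparisons, with 0 to 3 of 5 pairs over 0.1. They were not taken as pairs. List genes without a probe set of their own were not analysed here.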

Additional observations from a re-analysis of the deposited data

Results flagged for a closer look

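Chance alone marks about 1 group in 20 as holding an array far from the others, and 2 of the 48 groups of 5 arrays of the 8 enzymes were marked. Mthfd1 on control crypt replicate 2 read 11.5612, below the 11.8189 to 11.8844 of the other 4 control crypts. Psph on Rb KO crypt replicate 4 read 8.9987, above the 8.5643 to 8.6611 of the other 4 Rb KO crypts. No cause was tested for either.

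For 3 enzymes the difference between Rb KO and control was larger in villi than in crypts by the interaction in limma. It was larger by 0.918 on the log2 scale for Mthfd2, 0.761 for Mthfd1 and 0.514 for Shmt1. Of all tested genes 13.7% were called in this interaction, 6.76% as higher and 6.98% as lower. On the same arrays, 4 or 5 of the 5 Rb KO villus arrays were above every control villus array in each case. In crypts this held for 5 of 5 arrays for Mthfd2, 4 of 5 for Mthfd1 and 0 of 5 for Shmt1, of which 3 were below every control.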

How the results depend on the processing

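Counts below run in the order villi Rb KO against control, DKO against Rb KO, DKO against control, then the same in crypts, with 4433, 1139, 2484, 1498, 1802 and 2942 genes called, and 1999 and 495 in the interactions of Rb and of Myc loss. At an adjusted p of 0.01 they were 2867, 251, 1294, 673, 745 and 1648, and 940 and 85. With at least 1.5-fold they were 1365, 270, 759, 210, 272 and 394, and 780 and 149. Enzymes called in crypts then fell to 1 (Rb KO against control) and 1 (DKO against Rb KO) at 0.01, and to 1, 0 and 1 with the fold.

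Fitting all 30 arrays gave 2054 genes for DKO against Rb KO villi and 947 and 1171 for the first 2 crypt comparisons. Median centring gave 4749 for DKO against control villi, the crypt score 2549 for DKO against Rb KO villi and 1270 for the Rb interaction, the clock index 748 for DKO against Rb KO villi, and array weights 1054 for the Myc interaction. Without Rb KO animals 4 and 5 the counts were 554 for DKO against Rb KO villi, 805 and 1135 for the first 2 crypt comparisons, and 1069 and 276 for the interactions. Without control animals 1 and 4 the Myc interaction called 755. Leaving out 1 array gave 541 to 946 genes for DKO against Rb KO villi and 273 to 626 for the Myc interaction.

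Of the 8 enzymes, Rb KO against control villi called 3 as reported, 2 with the fold or the mean of probe sets (Shmt1 lost), 4 under median centring, 30 arrays, the clock index and the replicate block, and 3 to 4 leaving out an array. DKO against Rb KO villi called 0 as reported and 1 under quantile normalization, median centring, only the groups compared, array weights, sex, the GAPDH difference and without control animals 1 and 4, 2 in the fit of 30 arrays, 3 with the crypt score, and 0 to 1 leaving out an array. DKO against control villi called 1 as reported, 2 under median centring, 30 arrays, sex, GAPDH and the clock index, 3 under array weights and without control animals 1 and 4, and 1 to 3 leaving out an array. Rb KO against control crypts called 1 in place of 2 with the crypt score, the mean of probe sets or leaving out Rb KO animals 4 and 5. DKO against Rb KO crypts called 1 in place of 2 under quantile normalization, 30 arrays, the crypt score, GAPDH, the clock index and without Rb KO animals 4 and 5, and 1 to 3 leaving out an array. DKO against control crypts called 4 in place of 5 at 0.01, with the mean of probe sets, 30 arrays, GAPDH and without control animals 1 and 4. The Rb interaction called 2 in place of 3 with the fold, without Rb KO animals 4 and 5 and with the mean of probe sets, and the Myc interaction 1 in place of 0 with array weights. Phgdh in crypts turned sign with the fourth Phgdh probe set (0.48 in Rb KO and 0.12 in DKO against control, adjusted p = 0.761 and 0.938), and with the mean of probe sets it was not called (adjusted p = 0.545 and 0.117). The sign turned through control replicate 5, at 4.91 on that probe set. Its other control crypts (9.59 to 9.98) lay above all Rb KO (9.11 to 9.46) and all DKO crypts (8.43 to 9.40).

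With the replicate block, enzymes called were 4 in Rb KO against control villi (Shmt2 added, adjusted p = 0.0443), 2 in DKO against control villi (Mthfd1 added, adjusted p = 0.0344), 3 in DKO against Rb KO crypts (Mthfd1l added, adjusted p = 0.0284) and 1 in the Myc interaction with the animal as the block, where 1291 genes were called. Numbers shared between genotypes were not taken as a pairing. The block left the changes of enzyme pairs at -0.93, 0.75, 0.64, 0.79, 0.48, 0.36, 0.84, -0.72 and 0.44. The smallest exact permutation p that 5 pairs allow is 0.0625, above the threshold even before adjustment, so the missed threshold carries no information. The Shmt2 and Shmt1 pair in villi, Rb KO against control, had adjusted p = 0.0571 after quantile normalization (-0.93) and ranged from -1.1102 to -0.7401 leaving out an array. In DKO against control crypts it was called by limma (-0.3427, adjusted p = 0.0200), with -0.4081 to -0.2747 leaving out an array. There the pair used the Shmt2 probe set that fell most and the Shmt1 probe set that fell least. The Mthfd1l and Mthfd1 pair, DKO against Rb KO villi, was 0.4374 with limma adjusted p = 0.0679. The cause of these changes was not tested. Over all alternatives, 628 values that answer a comparison stayed on the same side of their threshold or within 1.5 times, 82 counts moved by more, 20 changes of enzyme pairs lost their call and 2 gained one. The lost calls include those with the replicate block, which could not pass.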
